A study of Mus musculus with 20 samples.

Results

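The nucleolar ribosome biogenesis factors described here are 42 proteins that make, fold, modify and cut the ribosomal RNA precursor and assemble it with ribosomal proteins. They were picked out by gene symbol from a list drawn up with earlier results of these data known, and all 42 have a row among the 26099 genes of the acute table and the 26486 genes of the survival table. They comprise 2 subunits of RNA polymerase I, 4 nucleolar chaperones and scaffolds, 3 box C/D and 3 H/ACA small nucleolar ribonucleoprotein (snoRNP) proteins, 3 RNA modification enzymes, 11 small subunit processome proteins, 3 late small subunit factors, the 3 PeBoW proteins and 10 other large subunit factors. Messenger RNA was sequenced in 20 libraries from spleens of mice carrying transplanted mouse T-cell acute lymphoblastic leukemias (T-ALL) with a conditional allele of Acly, the gene of ATP-citrate lyase, which cleaves citrate into oxaloacetate and the acetyl-CoA used for lipid synthesis and protein acetylation.

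All recipients were sub-lethally irradiated before the leukemia was injected, and all leukemias carried the conditional allele. KO mice received 3 mg tamoxifen in corn oil by intraperitoneal injection, and WT mice received corn oil alone, so that tamoxifen itself and the deletion cannot be told apart. In the acute arm, mice already had overt leukemia at treatment and spleens were collected 72 h later (4 KO, 6 WT). In the survival arm, mice were treated 48 h after transplantation and spleens were collected at the humane endpoint (5 KO, 5 WT). Spleen suspensions were filtered and freed of red cells, and the labels name no sort for leukemic cells. The recombinase, its promoter, mouse age and the number of independent leukemias are not stated there. Separate mice are not stated for the libraries either, so p-values measure the spread between libraries, which may be partly technical.

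Ribosome production starts in the nucleolus, where RNA polymerase I transcribes a long precursor. Box C/D snoRNPs guide 2′-O-methylation of that precursor and H/ACA snoRNPs guide pseudouridylation, while the small subunit processome, built around the U3 snoRNP, cleaves and folds its 5′ part. Separate assembly factors, the PeBoW complex among them, mature the large subunit. Genes of this machinery are known targets of MYC, and NOTCH1-driven T-ALL cells are known for high ribosome production.

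Values are counts normalized by the authors with DESeq, which makes libraries within a table comparable and carries no correction for transcript length, so levels are compared between libraries and not between genes. Totals ran from 19432235 to 21623571 normalized counts per library. Acly averaged 5670 ± 766 normalized counts in acute KO and 7735 ± 298 in acute WT libraries (SD, n = 4 and 6; log2 fold change -0.46, limma adjusted p = 0.000866). Acly in the survival arm averaged 3091 ± 712 normalized counts in KO and 7889 ± 560 in WT libraries (SD, n = 5 each; -1.38, adjusted p = 0.0016). Every KO library lay below every WT library of its arm, and none reached 0.

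The acute groups also differed in cell type markers. The summed level of 25 T-cell and thymocyte markers was 219600 to 290300 normalized counts in acute KO and 325100 to 335200 in acute WT libraries, and 21 of the 25 fell. None of the 25 was at 0 in all libraries of either arm. The summed level of 15 neutrophil markers was 183300 to 617800 normalized counts in acute KO and 12300 to 50840 in acute WT libraries, and all 15 rose, as did all 15 monocyte and macrophage markers and 13 of 14 B-cell markers. Of the genes tested on the other marker lists, 7 of 8 for NK and cytotoxic cells, 4 of 5 for plasma cells, 3 of 6 for dendritic cells, 2 of 5 for megakaryocytes and 1 of 7 for stroma and endothelium rose, and none of 10 for erythroid cells. No marker list had a called gene in the survival arm. Because whole spleen suspensions were sequenced, fewer cells of a type and less RNA per cell cannot be told apart, and the part of these markers in the results below was not tested except by the rescaled and adjusted values given with them.

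The promoters of several members are shown here, and any part of MYC in the acute values described next was not tested. Windows of 300 bases, 250 before and 50 after the annotated start, were available from RefSeq (GRCm38.p6, a build older than the GRCm39 of the deposited values) for 36 of the 42 members. The letters CACGTG, a palindrome that reads the same on both strands and is known as the E-box bound by MYC and MAX, occurred in a window of 7 of these 36 genes (19.4%). They occurred in 18 of 98 other ribosome biogenesis genes with a window (18.4%), in 1559 of 17492 protein-coding genes (8.91%) and in 1233 of 10871 genes tested in the acute table (11.3%). The 7 members were Nop2, Pes1, Wdr43, Tsr1, Ltv1, Utp20 and Mybbp1a. In the 100 bases around the start of the first 4 of them, from 70 before it to 30 after it, CACGTG is in capitals, and Gnl3 and Nop58 are shown as members with no such match.
Nop2 (chr6:125131813-125131912, plus strand): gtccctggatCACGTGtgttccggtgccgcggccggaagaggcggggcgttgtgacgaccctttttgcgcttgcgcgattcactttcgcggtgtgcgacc
Pes1 (chr11:3963905-3964004, plus strand): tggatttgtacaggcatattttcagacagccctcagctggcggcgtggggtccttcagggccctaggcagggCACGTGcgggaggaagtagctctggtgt
Wdr43 (chr17:71616145-71616244, plus strand): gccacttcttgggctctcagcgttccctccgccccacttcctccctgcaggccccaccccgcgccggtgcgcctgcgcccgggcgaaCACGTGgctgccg
Tsr1 (chr11:74898010-74898109, plus strand): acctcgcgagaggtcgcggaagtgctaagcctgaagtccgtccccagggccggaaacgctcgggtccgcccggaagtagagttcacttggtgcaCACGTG
Gnl3 (chr14:31019102-31019201, minus strand): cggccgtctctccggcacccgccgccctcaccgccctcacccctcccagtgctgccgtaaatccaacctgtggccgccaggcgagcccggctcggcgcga
Nop58 (chr1:59684936-59685035, plus strand): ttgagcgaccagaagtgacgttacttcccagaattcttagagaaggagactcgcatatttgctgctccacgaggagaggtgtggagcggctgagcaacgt
The match began 60 bases before the start in Nop2, 2 bases after it in Pes1, 17 bases after it in Wdr43 and 24 bases after it in Tsr1. The median acute log2 fold change was -0.27 over the 7 members with a match, 6 of which fell, and -0.25 over the 29 without one, 23 of which fell, on the deposited scale. Of all genes tested 14.7% fell on that scale, and no member was called lower on a T-cell scale. A match is a description of sequence and not evidence of binding. Npm1, Fbl, Wdr36, Rrp12, Bop1 and Rrs1 had no window.

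In the acute arm 33 of 42 members fell in KO spleens and none rose on the deposited scale, while on scales set by T-cell genes, given below with the shares of all genes, none fell and 5 or 21 rose. On the deposited scale 14.7% of all 16363 genes tested fell and 16.7% rose. All 42 fold changes were below 0, with a median log2 fold change of -0.25 against -0.023 over all genes, and they ran from -0.40 for Wdr12 to -0.049 for Rrp12. In 27 members every KO library lay below every WT library, as in 9.94% of all genes, and in no member did every KO library lie above, as in 12.7% of all genes. A gene counted as fallen or risen when its Benjamini-Hochberg adjusted p over all genes tested was under 0.05 by limma on log2(normalized count + 1).

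**Figure D1:**
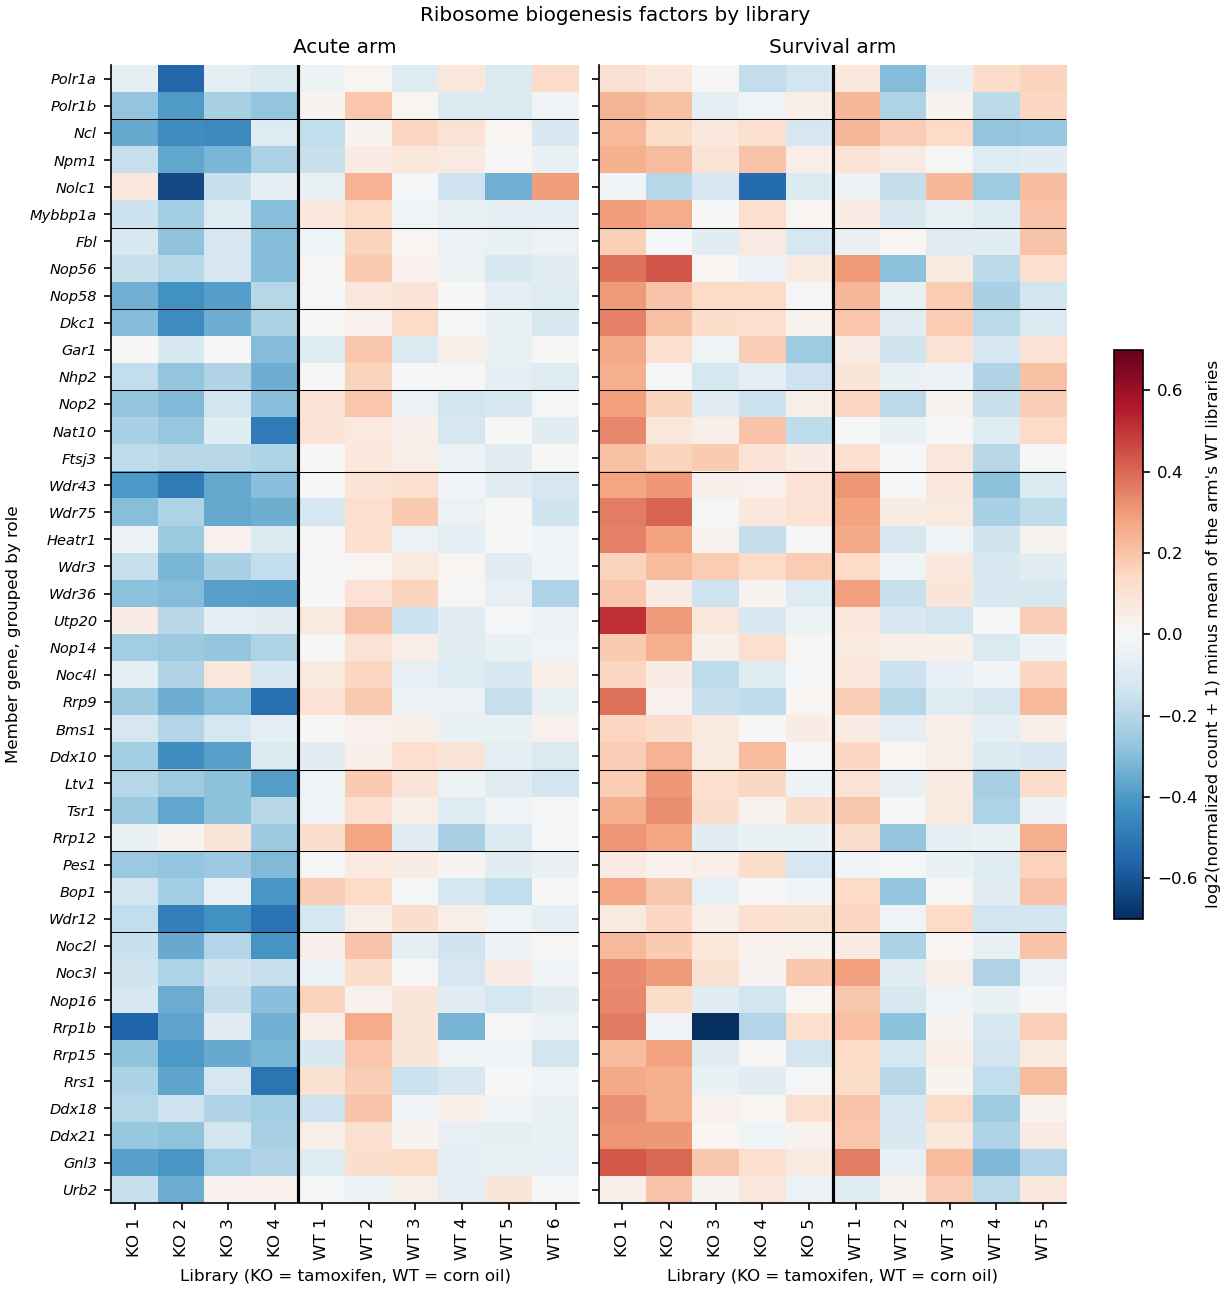
Heat map of the 42 members (rows, grouped by role with thin lines) in the 20 libraries (columns, KO left of WT within each arm). Colour is log2(normalized count + 1) minus the mean of that arm's WT libraries, on the deposited scale. The 4 acute KO columns are mostly blue, with 37 to 41 of 42 members below 0. On scales set by T-cell genes the acute fold changes of 40 or 42 of the 42 members were above 0.

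The direction of the acute change depended on what the libraries were scaled to. With libraries brought to equal totals 34 members fell and none rose, against 17.4% of all genes lower and 15.9% higher. With quantile normalization 34 fell and none rose, against 25.3% lower and 14.2% higher. With libraries scaled to Trbc1 and Trbc2, the constant genes of the T-cell receptor beta chain, no member fell and 5 rose, against 0.574% of all genes lower and 44.9% higher, and the members' median became 0.12 while that of all genes became 0.35. With libraries scaled to the median level of the 25 T-cell markers, no member fell and 21 rose, against 0.33% of all genes lower and 61.6% higher. Medians were then 0.23 for the members and 0.45 for all genes. That scale equalizes the middle level of the markers in each library and not their median fold change. The T-cell markers' own median log2 fold change was -0.32 as deposited, 0.052 on the Trbc scale and 0.16 on the marker scale. The marker scale thus moved the markers themselves past 0. On those 2 T-cell scales Acly itself had log2 fold changes of -0.081 (adjusted p = 0.654) and 0.023 (adjusted p = 0.88). Rises of single members on these scales are given below only for the 28 members described with every library's value. The members' median lay 0.23 below that of all genes on the deposited scale, a gap that multiplying a library by 1 factor, as equal totals and both T-cell scales do, can hardly move. Quantile normalization can change it, and there the gap was 0.14.

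**Figure D2:**
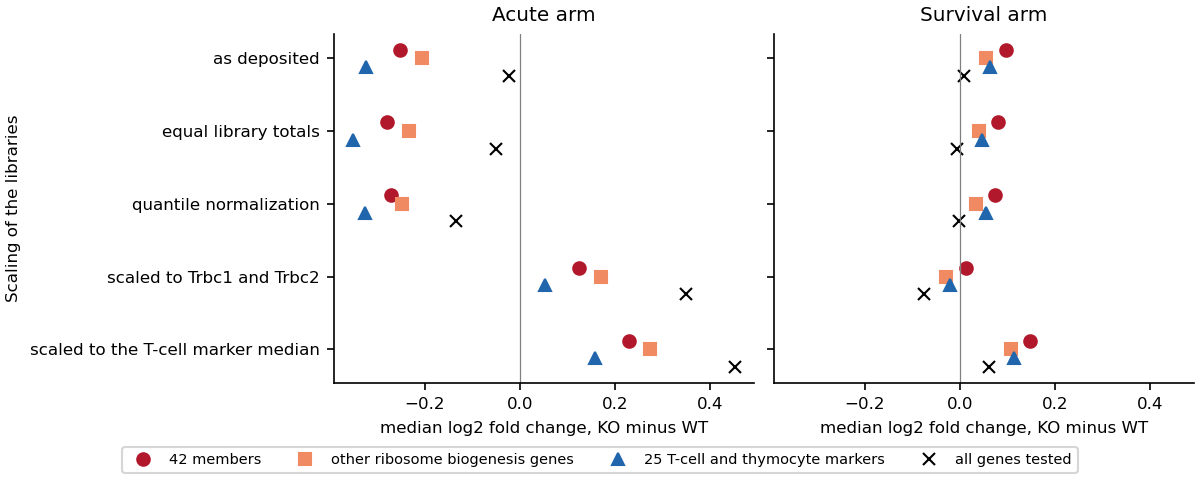
Median log2 fold change, KO minus WT, of the 42 members, the other ribosome biogenesis genes, the 25 T-cell markers and all genes tested (x axis), under 5 scalings of the libraries (y axis), acute arm left and survival arm right. In the acute arm the members' median is -0.25 as deposited and 0.23 when scaled to the T-cell marker median. The median of all genes moves with it, being -0.023 as deposited and 0.45 on the T-cell marker scale. The T-cell markers' own median is -0.32 as deposited and 0.16 on that scale.

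The acute shift was present in each KO library on the deposited scale. The members' median deviation from the WT mean was -0.19, -0.31, -0.20 and -0.27 on the log2 scale in the 4 acute KO libraries, and it ran from -0.057 to 0.12 in the 6 acute WT libraries. The T-cell marker median in the same KO libraries was -0.18, -0.52, -0.33 and -0.27. KO 2 was lowest and KO 1 highest in both medians. Without KO 2 and KO 3 together, the libraries with the lowest T-cell and the highest neutrophil marker medians, 20 members fell, against 4.42% of all genes. With a score of the other cell types' markers as a covariate, no member passed the test and none of all genes tested did either. The members' fold changes in that fit had a median of -0.29, with 38 below 0 and 4 above, while the median of the T-cell markers was 0.017. The score was 0.37 to 1.46 in acute KO and -0.90 to -0.27 in acute WT libraries, so the groups do not overlap in it.

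**Figure D3:**
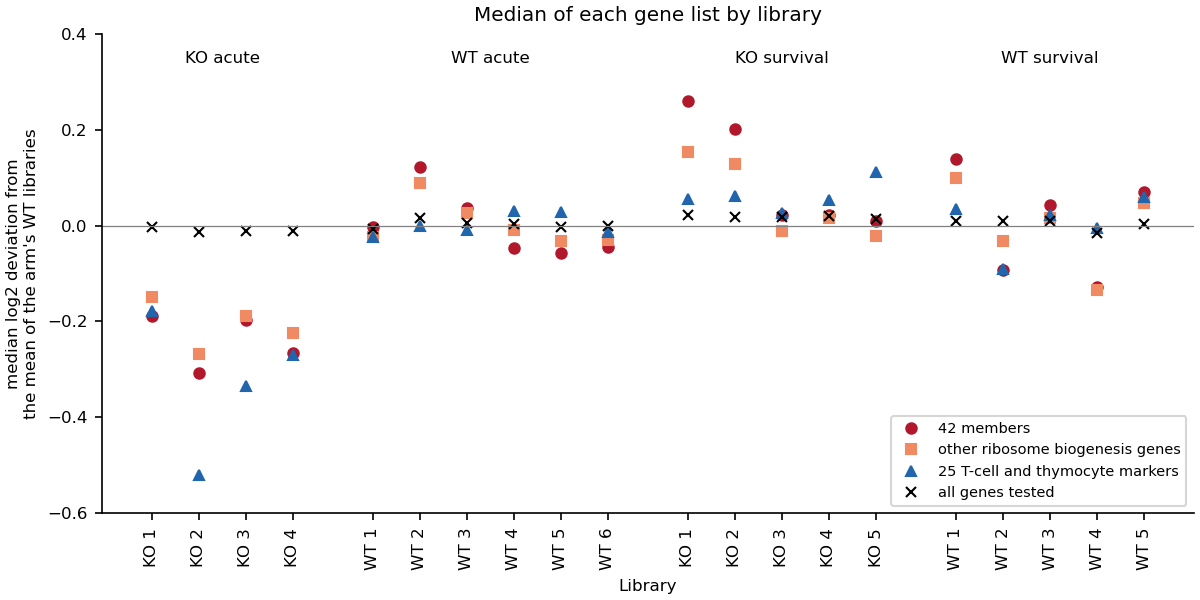
Median deviation, on the log2 scale, from the mean of the arm's WT libraries (y axis) for 4 gene lists in each of the 20 libraries (x axis, KO left of WT within each arm), on the deposited scale. The members (red circles) lie at -0.31 to -0.19 in acute KO and -0.057 to 0.12 in acute WT libraries, and the T-cell markers (triangles) lie at -0.52 to -0.18 in acute KO libraries.

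At the endpoint no member fell and none rose, against 0.0062% of 16136 genes in each direction, and 3 of the 42 members had an unadjusted p under 0.05 (Npm1, Wdr3 and Ftsj3), as did 1411 of the 16136 genes. Fold changes were above 0 in 37 members and below 0 in 5, with a median of 0.096 against 0.0087 over all genes. In no member were the groups separate, as every KO library lay below every WT library in 0.793% of all genes and above in 1.21%. The members' median deviation was 0.26, 0.20, 0.022, 0.022 and 0.0092 in the 5 survival KO libraries and -0.13 to 0.14 in the 5 survival WT libraries, so KO 1 and KO 2 stood highest and the other 3 KO libraries lay within the WT range.

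The fold changes of the arms differed. The survival fold change minus the acute fold change was above 0 for all 42 members on the deposited scale, and 26 of them passed the test above 0 and none below, against 9.39% and 10.9% of 15673 genes tested in both tables. On the Trbc scale 3 members passed below 0 and none above, against 44% and 0.376% of all genes. On the T-cell marker scale 1 passed below and none above, against 38.2% and 0.364% of all genes. The largest differences on the log2 scale were 0.55 for Gnl3, 0.53 for Wdr43 and 0.49 for Wdr12, Dkc1, Wdr75 and Nop58.

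**Figure D4:**
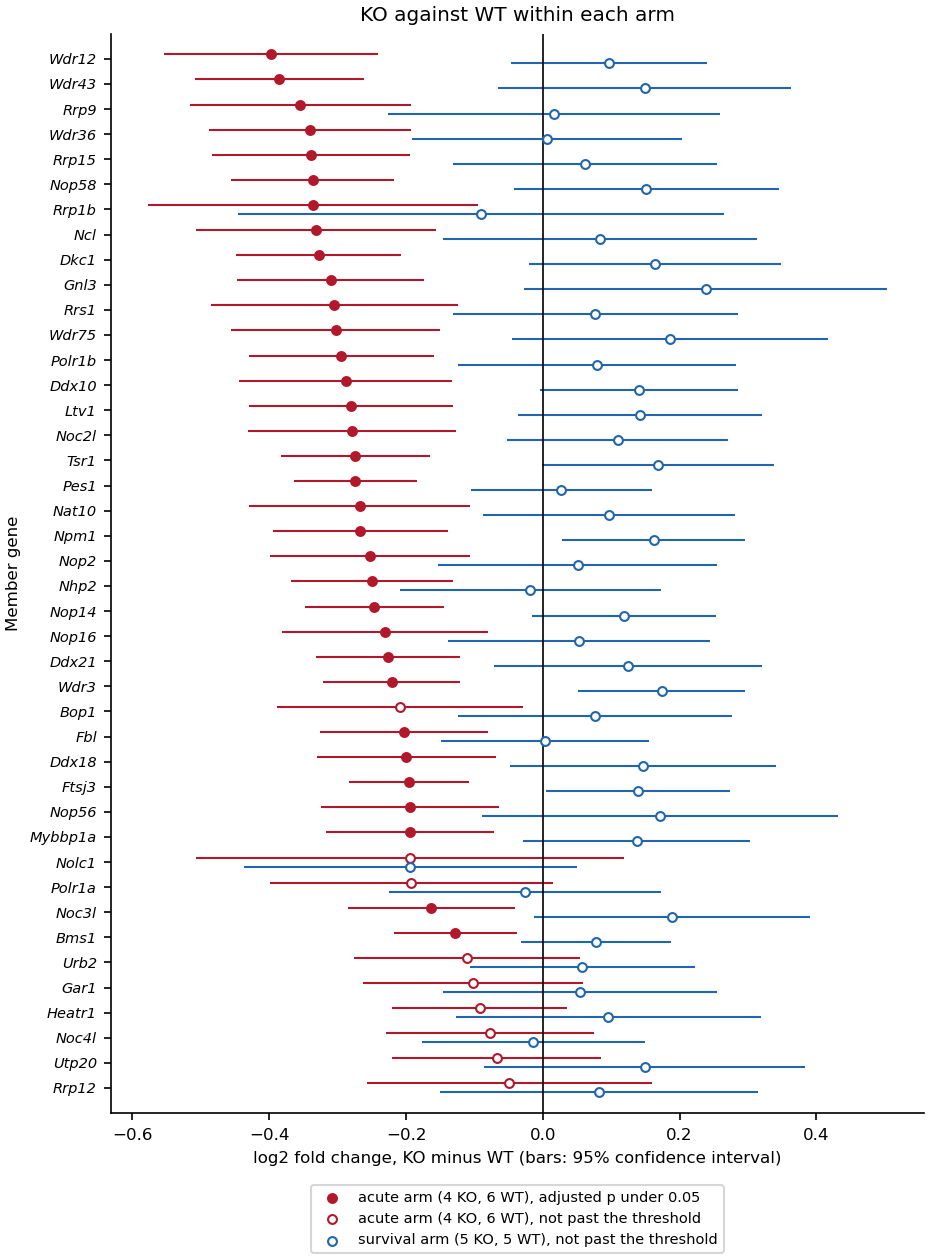
Log2 fold change, KO minus WT, of each member (y axis, ordered by the acute value) in the acute arm (red, above) and the survival arm (blue, below), on the deposited scale, with 95% confidence intervals from limma. Filled points have an adjusted p under 0.05, and the 33 filled points are all acute and lie left of 0. On the T-cell marker scale all 42 acute fold changes were above 0. On the Trbc scale 40 were above 0 and 2 stayed just below it (Wdr43 at -0.0099 and Wdr12 at -0.023).

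RNA polymerase I was represented by its largest subunits. Of the 2, Polr1b fell and Polr1a did not pass on the deposited scale, and neither was called lower on a T-cell scale. On the T-cell marker scale Polr1a was called higher (log2 fold change 0.29, adjusted p = 0.0137). Polr1b, the second largest subunit, had 1576, 1453, 1626 and 1576 normalized counts in acute KO libraries, against 1780 to 2186 with a median of 1901 in acute WT libraries. All 4 KO values lay below the WT range (log2 fold change -0.29, SE 0.062, adjusted p = 0.00396). Polr1b at the endpoint had 2174, 2125, 1769, 1811 and 1902 normalized counts in KO libraries, against 2167, 1586, 1880, 1625 and 2037 in WT libraries, and the groups overlapped (log2 fold change 0.079, SE 0.094, adjusted p = 0.83). Polr1a, the catalytic subunit, had 1147, 816, 1148 and 1121 normalized counts in acute KO libraries, against 1117 to 1313 with a median of 1188 in acute WT libraries. One KO library, KO 2, was far below the other 3, which lay in the lower part of the WT range (log2 fold change -0.19, SE 0.095, adjusted p = 0.148). Its survival levels were 1311, 1280, 1216, 1080 and 1107 normalized counts in KO libraries, against 1279, 985, 1176, 1329 and 1357 in WT libraries (log2 fold change -0.026, SE 0.092, adjusted p = 0.954).

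Of the 4 chaperones and scaffolds, Ncl, Npm1 and Mybbp1a fell acutely on the deposited scale and none was called lower on a T-cell scale. Of those described with every library's value, Npm1 was called higher on the T-cell marker scale (log2 fold change 0.21, adjusted p = 0.0358). Ncl encodes nucleolin, an RNA-binding protein of the nucleolus that aids polymerase I transcription and precursor processing. Its levels were 11120, 10500, 10450 and 13330 normalized counts in acute KO libraries, against 12620 to 15790 with a median of 14360 in acute WT libraries. KO 4 reached into the WT range and the other 3 lay below it (log2 fold change -0.33, SE 0.08, adjusted p = 0.00855). Survival levels of Ncl were 16790, 15670, 15100, 15490 and 13240 in KO libraries, against 16840, 16150, 15830, 11860 and 11940 in WT libraries, with 2 WT libraries lower than every KO library (log2 fold change 0.084, SE 0.11, adjusted p = 0.841). Npm1 encodes nucleophosmin, an abundant chaperone of the granular nucleolus. It had 28980, 25270, 26040 and 27840 normalized counts in acute KO libraries, against 29100 to 34270 with a median of 33230 in acute WT libraries, and the highest KO library was just below the lowest WT library (log2 fold change -0.27, SE 0.059, adjusted p = 0.00513). At the endpoint Npm1 leaned the other way, with 37350, 36540, 33510, 35980 and 32410 in KO libraries, against 33640, 32750, 31500, 29430 and 29800 in WT libraries. The groups overlapped, and the difference did not pass over all genes (log2 fold change 0.16, SE 0.062, adjusted p = 0.447, unadjusted p = 0.0215). The fold changes of the 2 arms differed by the test of the difference itself (difference 0.43, SE 0.084, adjusted p = 0.00118), though on the Trbc scale it was -0.031.

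Nolc1, a chaperone that escorts snoRNPs, was the member with the largest spread in both acute groups, with a coefficient of variation of 19.8% in KO and 16.3% in WT libraries. Its levels were 4601, 2804, 3898 and 4154 normalized counts in acute KO libraries, against 3445 to 5328 with a median of 4271 in acute WT libraries. KO 1 stood above the WT median and KO 2 below every WT library (log2 fold change -0.19, SE 0.14, adjusted p = 0.342). It had 4300, 3784, 4014, 3001 and 4078 in KO libraries, against 4242, 3874, 5120, 3668 and 5064 in WT libraries of the survival arm, the lowest survival fold change of the members (log2 fold change -0.19, SE 0.11, adjusted p = 0.664). The fold changes of the 2 arms were almost equal, with a difference of 0.00013 (SE 0.20) on the log2 scale. Mybbp1a, a nucleolar partner of MYB, fell acutely by 0.19 on the log2 scale (adjusted p = 0.0208).

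All 3 box C/D proteins fell acutely on the deposited scale, and none was called lower on a T-cell scale. On the T-cell marker scale Fbl (log2 fold change 0.28, adjusted p = 0.0146) and Nop56 (0.29, adjusted p = 0.024) were called higher. Fbl encodes fibrillarin, the 2′-O-methyltransferase of the box C/D snoRNP. It had 8858, 7885, 8818 and 7759 normalized counts in acute KO libraries, against 9227 to 10670 with a median of 9336 in acute WT libraries, with no overlap (log2 fold change -0.20, SE 0.057, adjusted p = 0.0174). Without KO 2 its adjusted p was 0.0559. Survival libraries had Fbl at 10650, 9375, 8990, 9888 and 8714 in KO libraries, against 9143, 9560, 8944, 8994 and 10880 in WT libraries, with almost equal means (log2 fold change 0.0031, SE 0.07, adjusted p = 0.997). A pseudogene row, Fbl-ps2, held 44.4 to 112.9 normalized counts in the 20 libraries, and how reads shared with it were assigned is not given in the sources used here.

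Nop56 and Nop58 form the paired scaffold of the same particle. Nop56 had 3670, 3556, 3772 and 3318 normalized counts in acute KO libraries, against 3799 to 4641 with a median of 4055 in acute WT libraries, again with no overlap (log2 fold change -0.19, SE 0.06, adjusted p = 0.0267). Its adjusted p was 0.0598 without KO 2, 0.0717 without KO 4 and 0.0521 without WT 3. Survival levels of Nop56 were 4865, 5067, 3780, 3636 and 3907 in KO libraries, against 4605, 3066, 3906, 3288 and 4039 in WT libraries, and the first 2 KO libraries were above all WT libraries (log2 fold change 0.17, SE 0.12, adjusted p = 0.716). Nop58 had 3880, 3644, 3751 and 4263 normalized counts in acute KO libraries, against 4592 to 5221 with a median of 4874 in acute WT libraries. Every KO library was below the lowest WT library (log2 fold change -0.34, SE 0.055, adjusted p = 0.000843). It had 5575, 5209, 4989, 4981 and 4506 in survival KO libraries, against 5340, 4369, 5132, 3878 and 4142 in survival WT libraries (log2 fold change 0.15, SE 0.09, adjusted p = 0.664). The fold changes of Nop58 in the 2 arms differed by 0.49 (SE 0.11, adjusted p = 0.00357).

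**Figure D5:**
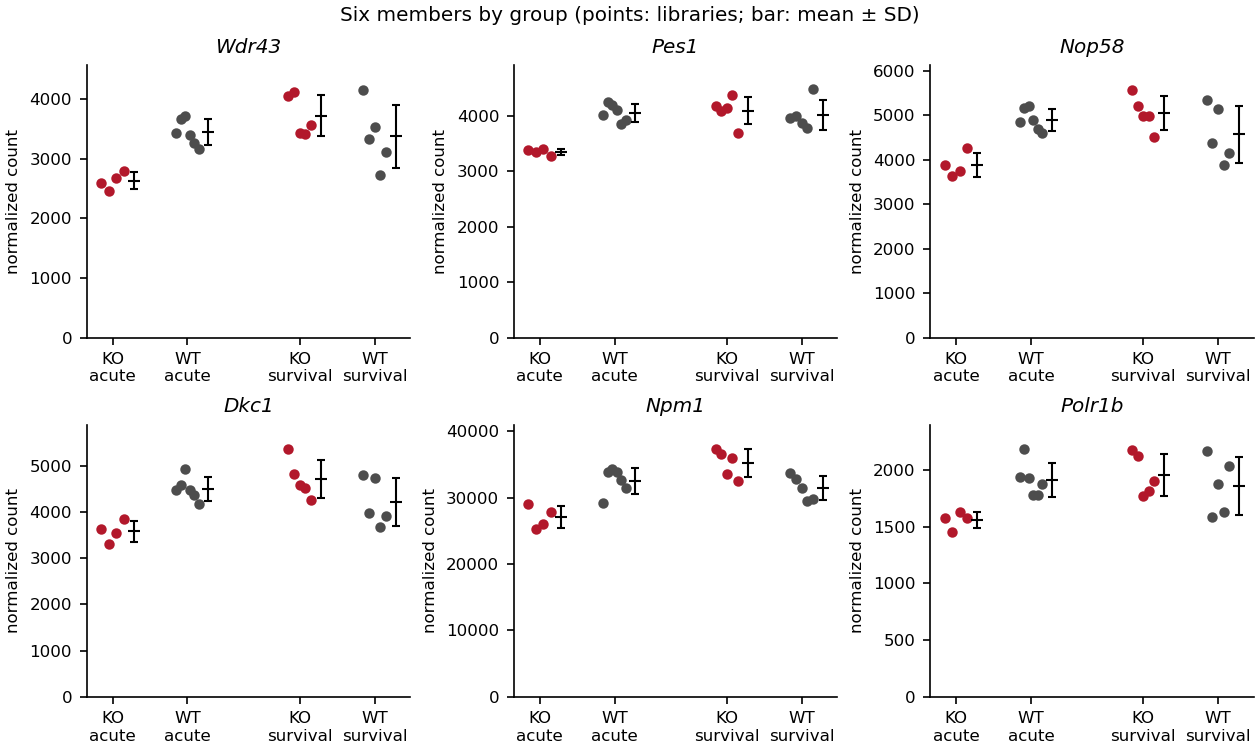
Normalized counts (y axis, from 0) of Wdr43, Pes1, Nop58, Dkc1, Npm1 and Polr1b in the 4 groups (x axis); each point is a library, and the bar is the mean ± SD. In each panel the 4 acute KO libraries lie below the 6 acute WT libraries, on the deposited scale, while the survival KO and WT libraries overlap. None of the 6 genes was called lower on a T-cell scale, and Npm1 was called higher on the T-cell marker scale.

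Of the 3 H/ACA proteins, Dkc1 and Nhp2 fell acutely on the deposited scale, Gar1 did not pass, and none was called lower on a T-cell scale. On the T-cell marker scale Nhp2 (log2 fold change 0.23, adjusted p = 0.0425) and Gar1 (0.38, adjusted p = 0.00954) were called higher. Dkc1 encodes dyskerin, the pseudouridine synthase, which is also part of telomerase. It had 3637, 3305, 3540 and 3856 normalized counts in acute KO libraries, against 4169 to 4936 with a median of 4473 in acute WT libraries, with the KO values well below the WT range (log2 fold change -0.33, SE 0.055, adjusted p = 0.00106). Dkc1 in the survival arm had 5352, 4826, 4583, 4522 and 4262 in KO libraries, against 4796, 3972, 4733, 3671 and 3905 in WT libraries, where KO 1 was the highest of the 10 (log2 fold change 0.16, SE 0.085, adjusted p = 0.624). Nhp2, a core protein that contacts the guide RNA, had 2647, 2467, 2583 and 2360 normalized counts in acute KO libraries, against 2803 to 3326 with a median of 2987 in acute WT libraries, with no overlap (log2 fold change -0.25, SE 0.054, adjusted p = 0.00478). Its survival levels were 3263, 2712, 2517, 2617 and 2481 in KO libraries, against 2905, 2656, 2674, 2368 and 3156 in WT libraries (log2 fold change -0.018, SE 0.088, adjusted p = 0.97). Gar1 binds the catalytic domain of dyskerin. Its acute levels were 1825, 1690, 1829 and 1475 normalized counts in KO libraries, against 1702 to 2079 with a median of 1794 in WT libraries, and only KO 4 lay clearly below the WT range (log2 fold change -0.10, SE 0.074, adjusted p = 0.33). Gar1 in the survival arm had 2174, 1955, 1770, 2041 and 1520 in KO libraries, against 1875, 1644, 1939, 1668 and 1937 in WT libraries (log2 fold change 0.054, SE 0.093, adjusted p = 0.89).

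The 3 RNA modification enzymes all fell acutely on the deposited scale, and none was called lower on a T-cell scale. Nop2, a cytosine methyltransferase of the large subunit RNA whose promoter window holds the E-box shown above, had 2256, 2203, 2488 and 2223 normalized counts in acute KO libraries, against 2495 to 3125 with a median of 2680 in acute WT libraries. The highest KO library came just under the lowest WT library (log2 fold change -0.25, SE 0.067, adjusted p = 0.014). Its survival levels were 3082, 2820, 2391, 2281 and 2606 in KO libraries, against 2796, 2224, 2576, 2271 and 2845 in WT libraries (log2 fold change 0.051, SE 0.094, adjusted p = 0.9). Nat10, which acetylates cytidines of the small subunit RNA with acetyl-CoA as donor, had 1624, 1579, 1795 and 1351 normalized counts in acute KO libraries, against 1750 to 2035 with a median of 1922 in acute WT libraries. KO 4 was lowest and KO 3 reached into the WT range (log2 fold change -0.27, SE 0.074, adjusted p = 0.017). Nat10 at the endpoint had 2231, 1866, 1818, 2022 and 1559 in KO libraries, against 1763, 1710, 1764, 1660 and 1933 in WT libraries (log2 fold change 0.097, SE 0.085, adjusted p = 0.766). Ftsj3, a 2′-O-methyltransferase of precursor rRNA, fell by 0.20 acutely (adjusted p = 0.0034) and had the smallest coefficient of variation among acute KO libraries, 1.15%.

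Of the 11 small subunit processome proteins, 8 fell acutely on the deposited scale, and none was called lower on a T-cell scale. Of those described with every library's value, Heatr1 (adjusted p = 0.00173), Wdr3 (0.0112), Utp20 (0.00178) and Noc4l (0.00426) were called higher on the T-cell marker scale. Heatr1 (0.0245), Utp20 (0.024) and Noc4l (0.0473) were called higher on the Trbc scale too. Wdr43, Wdr75 and Heatr1 belong to the subcomplex that binds the nascent precursor first (UtpA in yeast), and the first 2 of them fell. Wdr43 had 2600, 2451, 2678 and 2799 normalized counts in acute KO libraries, against 3165 to 3719 with a median of 3412 in acute WT libraries, far below the WT range (log2 fold change -0.39, SE 0.057, adjusted p = 0.000435). Wdr75 had 1038, 1101, 995 and 1008 normalized counts in acute KO libraries, against 1158 to 1452 with a median of 1260 in acute WT libraries, likewise with no overlap (log2 fold change -0.30, SE 0.07, adjusted p = 0.0068). Heatr1 had 2180, 1879, 2291 and 2102 normalized counts in acute KO libraries, against 2152 to 2440 with a median of 2229 in acute WT libraries; KO 3 was above the WT median and the groups overlapped (log2 fold change -0.092, SE 0.059, adjusted p = 0.264). The 3 were not tested against each other.

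At the endpoint the same 3 genes had overlapping groups. Wdr43 had 4052, 4122, 3429, 3414 and 3569 normalized counts in KO libraries, against 4144, 3336, 3526, 2734 and 3120 in WT libraries (log2 fold change 0.15, SE 0.099, adjusted p = 0.696). Wdr75 had 1549, 1600, 1199, 1270 and 1295 in KO libraries, against 1466, 1252, 1264, 1033 and 1069 in WT libraries (log2 fold change 0.19, SE 0.11, adjusted p = 0.658). Heatr1 had 3128, 2975, 2488, 2179 and 2442 in KO libraries, against 2942, 2263, 2406, 2223 and 2480 in WT libraries (log2 fold change 0.096, SE 0.10, adjusted p = 0.812). In all 3, KO 1 and KO 2 were among the 3 highest libraries of the arm, together with WT 1.

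Wdr3 and Wdr36 belong to a second subcomplex (UtpB in yeast). Wdr3 had 2176, 1954, 2080 and 2162 normalized counts in acute KO libraries, against 2305 to 2555 with a median of 2449 in acute WT libraries, with all KO values below the WT range (log2 fold change -0.22, SE 0.046, adjusted p = 0.00369). At the endpoint it had 2626, 2756, 2676, 2594 and 2669 in KO libraries, against 2597, 2316, 2490, 2190 and 2238 in WT libraries. The lowest KO value was just under the highest WT value, and the difference did not pass over all genes (log2 fold change 0.17, SE 0.057, adjusted p = 0.347, unadjusted p = 0.00907). The 2 arms differed by 0.39 (SE 0.069, adjusted p = 0.000385), the smallest adjusted p of the 42 members. Wdr36 had 1378, 1362, 1291 and 1286 normalized counts in acute KO libraries, against 1451 to 1878 with a median of 1689 in acute WT libraries (log2 fold change -0.34, SE 0.068, adjusted p = 0.00276). In survival libraries it had 1809, 1653, 1434, 1604 and 1489 in KO, against 1936, 1424, 1682, 1473 and 1468 in WT, with equal means to within 2 normalized counts (log2 fold change 0.0062, SE 0.091, adjusted p = 0.993).

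Rrp9, a protein specific to the U3 snoRNP, was among the largest acute falls. It had 1306, 1232, 1269 and 1084 normalized counts in acute KO libraries, against 1397 to 1775 with a median of 1519 in acute WT libraries, and KO 4 was the lowest (log2 fold change -0.35, SE 0.074, adjusted p = 0.00376). Its survival levels were 1800, 1408, 1235, 1222 and 1393 in KO libraries, against 1556, 1201, 1305, 1276 and 1617 in WT libraries, with 1 high KO library (log2 fold change 0.016, SE 0.11, adjusted p = 0.979). Utp20, a large scaffold protein, did not pass: it had 1848, 1558, 1707 and 1694 normalized counts in acute KO libraries, against 1606 to 2045 with a median of 1752 in acute WT libraries (log2 fold change -0.067, SE 0.07, adjusted p = 0.511). Utp20 at the endpoint had 2690, 2316, 1991, 1750 and 1838 in KO libraries, against 1984, 1754, 1724, 1867 and 2126 in WT libraries, and KO 1 and KO 2 were the highest 2 of the 10 (log2 fold change 0.15, SE 0.11, adjusted p = 0.725).

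Noc4l is known in yeast as a partner of Nop14, and only Nop14 passed. Noc4l had 1106, 1003, 1227 and 1071 normalized counts in acute KO libraries, against 1075 to 1286 with a median of 1152 in acute WT libraries, and the groups overlapped (log2 fold change -0.077, SE 0.07, adjusted p = 0.441). Its survival levels were 1346, 1260, 1076, 1147 and 1205 in KO libraries, against 1281, 1096, 1168, 1200 and 1346 in WT libraries (log2 fold change -0.014, SE 0.075, adjusted p = 0.975). Nop14 fell by 0.25 acutely (adjusted p = 0.00211), and all 4 KO libraries lay below all WT libraries. The helicase Ddx10 fell by 0.29 (adjusted p = 0.00962) and the GTPase Bms1 fell by 0.13 (adjusted p = 0.0348), the smallest called fall of the members.

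Of the 3 late small subunit factors, Ltv1 and Tsr1 fell acutely, by 0.28 (adjusted p = 0.00886) and 0.27 (adjusted p = 0.00165), and neither was called lower on a T-cell scale. Both act on the particle on its way to and in the cytoplasm, and both promoter windows hold CACGTG. Rrp12, a HEAT-repeat protein of subunit export, had the acute fold change nearest to 0 on the deposited scale. On the T-cell marker scale Rrp12, which alone of these is described with every library's value, was called higher (log2 fold change 0.43, adjusted p = 0.0144). It had 1197, 1249, 1311 and 1035 normalized counts in acute KO libraries, against 1055 to 1494 with a median of 1201 in acute WT libraries (log2 fold change -0.049, SE 0.096, adjusted p = 0.745). In the survival arm it had 1533, 1499, 1169, 1199 and 1198 in KO libraries, against 1349, 1027, 1181, 1198 and 1478 in WT libraries (log2 fold change 0.082, SE 0.11, adjusted p = 0.847).

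The PeBoW complex, which large subunit maturation needs, held the largest fall of the members. Pes1 and Wdr12 fell acutely on the deposited scale, Bop1 did not pass, and none was called lower on a T-cell scale. On the T-cell marker scale Bop1 was called higher (log2 fold change 0.27, adjusted p = 0.0462). Pes1 had 3388, 3357, 3398 and 3277 normalized counts in acute KO libraries, against 3850 to 4259 with a median of 4064 in acute WT libraries, with the KO libraries close together and well below the WT range (log2 fold change -0.27, SE 0.041, adjusted p = 0.000489). Wdr12 had 1874, 1513, 1572 and 1474 normalized counts in acute KO libraries, against 1937 to 2298 with a median of 2125 in acute WT libraries, with KO 1 nearest to the WT range (log2 fold change -0.40, SE 0.072, adjusted p = 0.00157). Bop1 had 2531, 2350, 2667 and 2086 normalized counts in acute KO libraries, against 2462 to 3119 with a median of 2753 in acute WT libraries, with overlap (log2 fold change -0.21, SE 0.082, adjusted p = 0.0738); without WT 5 its adjusted p was 0.0483.

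At the endpoint the 3 PeBoW genes had overlapping groups. Pes1 had 4175, 4095, 4153, 4378 and 3697 normalized counts in KO libraries, against 3969, 3992, 3883, 3784 and 4492 in WT libraries (log2 fold change 0.027, SE 0.061, adjusted p = 0.922). Wdr12 had 2164, 2292, 2143, 2252 and 2235 in KO libraries, against 2297, 2039, 2281, 1892 and 1891 in WT libraries, and its KO libraries were closer together than its WT libraries (log2 fold change 0.097, SE 0.066, adjusted p = 0.705). Bop1 had 2985, 2814, 2373, 2470 and 2438 in KO libraries, against 2726, 2048, 2479, 2348 and 2832 in WT libraries (log2 fold change 0.076, SE 0.093, adjusted p = 0.833). The arms differed by 0.49 for Wdr12 (SE 0.098, adjusted p = 0.00125) and by 0.30 for Pes1 (SE 0.071, adjusted p = 0.00513), but by -0.16 for Pes1 on the Trbc scale.

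Of the 10 other large subunit factors, 9 fell acutely on the deposited scale, all but Urb2, and none was called lower on a T-cell scale. Of those described with every library's value, Noc3l was called higher on the T-cell marker scale (log2 fold change 0.32, adjusted p = 0.0135). Gnl3 encodes nucleostemin, a nucleolar GTPase. It had 1855, 1819, 2036 and 2088 normalized counts in acute KO libraries, against 2268 to 2644 with a median of 2326 in acute WT libraries, with no overlap (log2 fold change -0.31, SE 0.063, adjusted p = 0.00308). It had the highest survival fold change of the members, with 2911, 2856, 2468, 2335 and 2262 in KO libraries, against 2773, 2081, 2520, 1740 and 1876 in WT libraries, yet WT 1 and WT 3 lay between KO 2 and KO 3 (log2 fold change 0.24, SE 0.12, adjusted p = 0.621). Its WT libraries had the largest coefficient of variation of the members in that group, 19.9%.

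Noc3l, a partner of Noc2l in yeast, had 797, 756, 794 and 785 normalized counts in acute KO libraries, against 807 to 955 with a median of 872 in acute WT libraries (log2 fold change -0.16, SE 0.056, adjusted p = 0.0442). The KO libraries lay just below the WT range. Leaving out any 1 of the 4 KO libraries, or any 1 of the WT libraries but WT 4, ended the call, with adjusted p-values of 0.0506 to 0.114. Its survival levels were 1040, 1017, 888, 837 and 943 in KO libraries, against 1007, 781, 852, 715 and 805 in WT libraries (log2 fold change 0.19, SE 0.093, adjusted p = 0.602).

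Rrp1b, which binds the ribosomal RNA precursor and also chromatin, had 720, 823, 1011 and 843 normalized counts in acute KO libraries, against 848 to 1272 with a median of 1074 in acute WT libraries, and the groups overlapped (log2 fold change -0.34, SE 0.11, adjusted p = 0.0368). The call ended without KO 1, KO 2 or KO 4, or without any 1 WT library but WT 4, with adjusted p-values of 0.0551 to 0.0989. In the survival arm Rrp1b had 1194, 910.1, 572, 804 and 1001 in KO libraries, against 1075, 761, 940.2, 857 and 1041 in WT libraries, and KO 3 was the lowest of the 10 (log2 fold change -0.091, SE 0.16, adjusted p = 0.896).

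The other falls of that group were 0.34 for Rrp15 (adjusted p = 0.00256), 0.30 for Rrs1 (adjusted p = 0.0154), which helps to dock the smallest ribosomal RNA, and 0.28 for Noc2l (adjusted p = 0.01). The helicases Ddx21 and Ddx18 fell by 0.23 (adjusted p = 0.00434) and 0.20 (adjusted p = 0.0242), and Nop16 fell by 0.23 (adjusted p = 0.0239). Urb2 had a log2 fold change of -0.11 (adjusted p = 0.301). All of these are acute values on the deposited scale.

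Among members, 7 carry genes of small nucleolar RNAs within their own borders and on their own strand, as annotated by GENCODE vM21 on the older build: Nop56 with 5, Nop58 with 4, Ncl, Wdr43 and Gnl3 with 3 each, Tsr1 with 2 and Dkc1 with 1. Such host genes were 16.7% of the members and 1.18% of 21922 protein-coding genes. All 7 fell acutely on the deposited scale, with a median log2 fold change of -0.33, and 26 of the other 35 members fell, with a median of -0.23. Of all genes tested 14.7% fell. The 2 subsets were not tested against each other, and no member was called lower on a T-cell scale. In 19 of the 42 members an exon overlapped an exon of a gene on the opposite strand. Libraries were strand-specific, but whether strand was used in counting is not given in the sources used here, so reads of such pairs may not have been told apart.

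The rest of the pathway moved in the same direction acutely. Of 116 other ribosome biogenesis genes tested, 71 fell and none rose on the deposited scale, against 14.7% of all genes lower and 16.7% higher. Their median log2 fold change was -0.21, and on the Trbc and T-cell marker scales it was 0.17 and 0.27. By list, 6 of 13 genes of RNA polymerase I and its initiation factors fell, 7 of 10 snoRNP partners, 25 of 39 small subunit genes, 27 of 42 large subunit genes and 6 of 12 genes of the nuclear exosome, which trims precursors. The largest called falls by list were Polr1g (0.33) and Polr1d (0.26) of the polymerase, Znhit6 (0.36) and Naf1 (0.34) of snoRNP assembly, Tsr2 (0.47) and Nob1 (0.46) of the small subunit, Rpf2 (0.46) and Nmd3 (0.41) of the large subunit, and Exosc2 (0.30) and Exosc5 (0.24) of the exosome. In the survival arm none of the 116 fell and none rose, and their median was 0.055.

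Myc, a known regulator of these genes, averaged 5860 ± 836 normalized counts in acute KO and 8513 ± 994 in acute WT libraries (SD, n = 4 and 6; log2 fold change -0.54, adjusted p = 0.00186). At the endpoint it averaged 8327 ± 720 normalized counts in KO and 7872 ± 625.1 in WT libraries (SD, n = 5 each; 0.080, adjusted p = 0.772). On the Trbc and T-cell marker scales the acute log2 fold change of Myc was -0.17 (adjusted p = 0.269) and -0.061 (adjusted p = 0.562). Of 10 proliferation genes, 5 rose and 1 fell in acute KO spleens on the deposited scale, against 16.7% and 14.7% of all genes, and their median log2 fold change was 0.32. That list was not followed on the T-cell scales, and which cells of the spleen its values came from was not tested.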

How the data were processed

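RNA of leukemic spleens was sequenced as 20 polyadenylated, strand-specific libraries. The authors deposited 2 tables, 1 per arm, of DESeq-normalized counts per gene, a signal that is not a raw read count. The quantifier was kallisto 0.46.0 with GRCm39, per the submitters' processing notes; annotation, filters and strand setting are not stated in the sources used here. The tables were scaled separately, so levels were compared within a table. Only 13.4 to 80.0% of a library's low values were whole multiples of a step fitted from its smallest values (tolerance 0.1 step), so whole reads were not recovered and count tests were not run.

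From these values log2(normalized count + 1) was modelled per gene by limma 3.58.1 (R 4.3.3; lmFit and trended eBayes) for genes reaching 10 in at least 4 (acute) or 5 (survival) libraries. P-values are two-sided, adjusted by Benjamini-Hochberg over all genes tested, and called under 0.05. A contrast over all 20 libraries tested the survival minus the acute fold change. The code was tested on simulated data. In all 33 alternative settings were run, leave-outs included. The members, lists and named genes were chosen with earlier results of these data known. Named with every library's value were 18 listed members and, per arm, the 4 lowest and 4 highest fold changes, 28 in all; the other 14 are given by role. Member symbols were matched to RefSeq windows and GENCODE vM21 with Python 3.11.15, pandas 2.3.3, numpy 2.4.6 and matplotlib 3.10.9.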

Additional observations from a re-analysis of the deposited data

Results flagged for a closer look

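Single libraries stood apart in 3 of 116 groups, where chance alone gives about 1 in 20 groups. The groups held the values of the 28 named members or the members' median deviation per library, and the other 14 members were not screened. Polr1a had 816.3 normalized counts in acute KO library 2, against 1121 to 1148 in the other 3 KO libraries. Fbl had 10670 normalized counts in acute WT library 2, against 9227 to 9645 in the other 5. Nhp2 had 3326 normalized counts in the same WT library, against 2803 to 2998 in the other 5.

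The survival fold change minus the acute fold change passed its own test above 0 for 10 of the 18 members listed for naming, on the deposited scale. Of all 15673 genes tested in both arms 9.39% passed above 0. On the log2 scale it was 0.55 for Gnl3, 0.53 for Wdr43, 0.49 for Wdr12, 0.49 for Dkc1, 0.49 for Nop58, 0.43 for Npm1, 0.42 for Ncl, 0.37 for Polr1b, 0.36 for Nat10 and 0.30 for Pes1. For Ncl the call ended (adjusted p 0.0585 to 0.0986) without any 1 of acute KO 1, 2 or 3, acute WT 2, 3, 4 or 5, survival KO 1 to 4, or survival WT 4 or 5. For Polr1b it ended (0.054 to 0.0728) without acute KO 2, survival KO 1 or 2, or survival WT 2 or 4. For Nat10 it ended (0.0514 to 0.0727) without acute KO 2 or 4, survival KO 1 or 4, or survival WT 2 or 4. The other 7 kept their call without any 1 library on the deposited scale. On the Trbc and T-cell marker scales 0 members passed above 0, against 0.376% and 0.364% of all genes. With the other-cell marker score as covariate 0 members passed above 0 too, against 0.00638% of all genes.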

How the results depend on the processing

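Under the 2 T-cell scales the sign of most acute fold changes turned, but a turned sign was often not a called rise. On the Trbc scale 40 of 42 members were above 0 and 5 of them were called higher, against 44.9% of all genes. On the T-cell marker scale 42 were above 0 and 21 were called higher, against 61.6% of all genes. The T-cell markers' own median was 0.16 on that scale. Values of single members in this paragraph are from the 28 named. Rrp9 on the Trbc scale, for example, had an adjusted p of 0.902, and Wdr43 (-0.0099) and Wdr12 (-0.023) stayed below 0 there. Scaled to Trbc1 and Trbc2, 0 members were called lower and 5 higher, with a median of 0.12, and log2 fold changes were 0.081 for Polr1b, 0.044 for Ncl, 0.11 for Npm1, 0.17 for Fbl, 0.18 for Nop56, 0.039 for Nop58, 0.048 for Dkc1, 0.13 for Nhp2, 0.12 for Nop2, 0.11 for Nat10, 0.073 for Wdr75, 0.28 for Heatr1, 0.15 for Wdr3, 0.035 for Wdr36, 0.31 for Utp20, 0.30 for Noc4l, 0.020 for Rrp9, 0.10 for Pes1, 0.21 for Noc3l, 0.040 for Rrp1b and 0.065 for Gnl3. Scaled to the T-cell marker median, 0 were called lower and 21 higher, with a median of 0.23, and values were 0.29 for Polr1a, 0.19 for Polr1b, 0.15 for Ncl, 0.21 for Npm1, 0.28 for Fbl, 0.29 for Nop56, 0.14 for Nop58, 0.15 for Dkc1, 0.38 for Gar1, 0.23 for Nhp2, 0.23 for Nop2, 0.21 for Nat10, 0.094 for Wdr43, 0.18 for Wdr75, 0.39 for Heatr1, 0.26 for Wdr3, 0.14 for Wdr36, 0.41 for Utp20, 0.40 for Noc4l, 0.12 for Rrp9, 0.43 for Rrp12, 0.21 for Pes1, 0.27 for Bop1, 0.082 for Wdr12, 0.32 for Noc3l, 0.14 for Rrp1b, 0.17 for Gnl3 and 0.023 for Acly. The arm difference passed below 0 for 3 members and above for 0 on the Trbc scale, against 44% and 0.376% of all genes. There it was -0.086 for Polr1b, -0.044 for Ncl, -0.031 for Npm1, -0.16 for Pes1 and -0.095 for Nat10. It passed below 0 for 1 and above for 0 on the marker scale, against 38.2% and 0.364% of all genes. Its values there were -0.054 for Polr1b, -0.012 for Ncl, -0.13 for Pes1 and -0.063 for Nat10. With the other-cell marker score as covariate, 0 members were called lower acutely (median -0.29, against -0.25 as deposited) and 0 above 0 for the arm difference (median 0.42, against 0.35), and 0 of all genes tested were called acutely. Leaving out acute KO 2 and 3 together, which leaves fewer samples, 20 members were called lower and 12 above 0, against 4.42% and 2.44% of all genes.

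Leaving out 1 library at a time, acute calls numbered 26 to 33 lower and 0 higher with a median of -0.27 to -0.23, arm differences 18 to 29 above 0 and 0 below, and survival calls 0 with a median of 0.059 to 0.13. In the same fits 9.38 to 15.4% of all genes were called lower acutely and 5.59 to 10.8% above 0 for the arm difference. Survival calls were 0 in either direction under every alternative run. Deviations of same-numbered KO and WT libraries had correlations of -0.066 to 0.14 in the acute and -0.020 to 0.13 in the survival arm. Differently numbered libraries were not correlated for comparison, so whether replicate numbers pair the libraries was not tested. With a replicate block 26 members were called lower and 25 above 0, against 7.25% and 6.12% of all genes. Npm1 (0.0596), Fbl (0.0676), Noc3l (0.209) and Rrp1b (0.0696) then missed the threshold and Bop1 (0.0437) passed it. Pseudocounts of 0.5 or 10, both filters, no trend and array weights gave 27 to 33 lower, against 7.83 to 21% of all genes. Over all genes 2409 were called lower as deposited, 4145 with quantile normalization, 94 and 54 on the Trbc and marker scales (where 7355 and 10073 were called higher, against 2731 as deposited), 1186 with the block, 1535 without acute KO 2 and 723 without KO 2 and 3. Depth in reads is unknown, so no counting interval was given.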
